A study of Mus musculus with 6 samples.

Results

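Proliferating C1q macrophages were chosen barcode by barcode from single-cell libraries of mouse pancreatic tumours. Barcodes were taken as cells from 500 UMIs (tags that mark single captured transcripts) upwards, if over 200 genes were detected and mitochondrial UMIs stayed under 10%. Among these, a C1q macrophage had the complement genes C1qa, C1qb and C1qc at 0.2% or more of its UMIs, the neutrophil genes S100a8 and S100a9 under 1%, and no UMI of the T cell gene Cd3e or of Gm49504, a long noncoding RNA gene that the study counted as epithelial. A proliferating one also held at least 2 UMIs of Mki67 and Top2a together. The rule gave 1237 members among 10651 C1q macrophages (11.6%) and 74546 cells in all (1.66%). The 7505 C1q macrophages with no UMI of either gene served as the reference, and the 1909 with exactly 1 UMI belonged to neither arm.

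The tumours grew in the pancreas of C57BL/6 mice, young adults with an intact immune system, after injection of KPC cells, a mouse pancreatic cancer line. The line carried either an empty vector (KPC-OE-Vector) or a construct that overexpresses mouse Mlkl (KPC-OE-MLKL), the pseudokinase that opens the cell membrane in necroptosis, and primary tumours were taken several weeks later, dissociated and run on droplets that read the 3' ends of transcripts. The construct was put into the cancer cells, and the macrophages are cells of the host. Count matrices of 4 libraries were used, OE-Vector 1 and OE-MLKL 1, 2 and 3, each from 1 tumour. OE-Vector 2 and 3 were not analysed here. With 1 OE-Vector library, a difference between the groups and a difference between tumours cannot be told apart.

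The 4 libraries held 150591289 to 169978362 UMIs, and 15382 to 23063 cells with medians of 1983 to 5287 UMIs. Pairs of libraries shared 73 to 134 cell barcodes, and no member barcode was a member in 2 libraries. Mlkl did not separate the labels. In Gm49504-positive barcodes without a C1q UMI it stood at 11.0 CPM (UMIs of a gene per 1000000 UMIs) in OE-Vector 1 and at 8.16, 11.8 and 12.02 CPM in OE-MLKL 1, 2 and 3, and in members at 13.1 against 9.87, 19.1 and 12.1 CPM. Which end of the transcript the construct carries is not given in the sources used here, so that 3' counts may miss it, and libraries are named by their labels throughout. From here on, 4 values given together follow the order OE-Vector 1, OE-MLKL 1, OE-MLKL 2 and OE-MLKL 3.

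C1q, the first component of the classical complement pathway, is made largely by tissue and tumour macrophages, and C1qa, C1qb and C1qc encode its chains. Macrophages of solid tumours are renewed by monocytes that arrive from the blood and by division of cells already in the tissue, for which Csf1r, the receptor of macrophage colony-stimulating factor, is the main growth receptor. A dividing cell passes from DNA synthesis (S phase), run by E2F transcription factors, into G2 and mitosis, whose genes are read late and are controlled by B-Myb, FoxM1 and the DREAM complex. Mki67, which coats mitotic chromosomes, and Top2a, which untangles replicated DNA, are read mainly from late S phase to mitosis.

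The promoters of both genes that chose the members, and of 5 genes that stood high with them, are shown because the cell cycle lists differ in the motifs they hold. The 5 were picked after the matches were seen, as genes whose windows hold one, so they illustrate the motifs, and the shares of whole lists that follow carry the comparison. Each line gives 80 bases of the RefSeq sequence of build GRCm38.p6, 5' to 3' on the strand of the gene, with matches in capitals. These are TTTGAA (the CHR, or cell cycle homology region, to which DREAM and B-Myb complexes bind), CCAAT, and the E2F forms TTTCCCGC, TTTCGCGC, TTTGCCGC and TTTGGCGC, each searched on both strands, so that reverse complements also stand in capitals. In the first E2F promoter 2 matches overlap.

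Mki67 (chr7:135716428-135716507, minus strand): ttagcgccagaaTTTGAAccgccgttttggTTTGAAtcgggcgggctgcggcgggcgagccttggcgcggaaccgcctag
Top2a (chr11:99024170-99024249, minus strand): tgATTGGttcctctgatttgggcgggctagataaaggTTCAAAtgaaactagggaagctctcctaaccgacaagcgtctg
Cdk1 (chr10:69352893-69352972, minus strand): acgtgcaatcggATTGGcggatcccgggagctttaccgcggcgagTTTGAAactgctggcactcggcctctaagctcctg
Cdc20 (chr4:118437324-118437403, minus strand): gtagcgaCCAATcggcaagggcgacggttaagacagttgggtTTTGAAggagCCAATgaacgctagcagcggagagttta
Kif11 (chr19:37376322-37376401, plus strand): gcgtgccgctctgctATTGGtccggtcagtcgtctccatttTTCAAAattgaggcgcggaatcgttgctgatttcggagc
Mcm5 (chr8:75109330-75109409, plus strand): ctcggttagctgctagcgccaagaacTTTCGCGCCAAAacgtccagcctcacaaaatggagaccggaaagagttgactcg
Pclaf (chr9:65890263-65890342, plus strand): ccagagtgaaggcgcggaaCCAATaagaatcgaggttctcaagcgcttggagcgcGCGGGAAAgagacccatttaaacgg

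Among 27025 genes with a window from 250 bases before to 50 after the start site, 20.2% held a CHR, 41.1% a CCAAT box and 2.60% an E2F match. Of the 35 G2 and M phase genes with a window, out of 42, 24 held a CHR (68.6%), 26 a CCAAT box (74.3%) and 1 an E2F match (2.86%). Of the 30 DNA replication genes with a window, out of 36, 5 held a CHR (16.7%), 20 a CCAAT box (66.7%) and 13 an E2F match (43.3%). Other cell cycle lists held both motifs. Of the 10 mitotic chromatin genes with a window, 7 held a CHR (70%) and 5 an E2F match (50%). Of the 8 cell cycle transcription factor genes with a window, 4 held a CHR (50%) and 4 an E2F match (50%). A match is a run of letters and was not tested as a binding site.

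Mki67 and Top2a, which chose the members, are given as a description. Mki67 stood at 330.0, 373, 443 and 510 CPM in members and Top2a at 564, 207, 587 and 704 CPM. Both genes were detected in 202 of 297, 50 of 139, 173 of 264 and 342 of 537 members. In OE-MLKL 1 Top2a was low, and 79 of the 139 members there held Mki67 alone. The C1q genes, also part of the rule, were lower in members than in the reference in every library. C1qa was at 4839, 3393, 4191 and 4482 CPM in members and 4941, 3760, 5016 and 4689 CPM in the reference. C1qb was at 3897, 2735, 3284 and 3698 CPM against 4160, 3268, 4027 and 3832 CPM. C1q genes made up a median 0.969% to 1.12% of the UMIs of a member. Just outside that threshold, 70 barcodes had enough Mki67 and Top2a with C1q genes at 0.1% to 0.2% of UMIs, and just inside it 27 members were under 0.3%. Free RNA itself held C1q genes at 0.226%, 0.135%, 0.160% and 0.256% of UMIs, above the 0.2% of the rule in OE-Vector 1 and OE-MLKL 3.

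The label was checked against 14 macrophage genes the rule did not use, among them Cd68, Adgre1 (F4/80), Csf1r, Mertk and Lyz2, and against 42 G2 and M phase and 39 S phase genes without Mki67 and Top2a. Macrophage genes summed to 20288, 14801, 14913 and 17966 CPM in members, against 249 to 613 CPM in dividing Gm49504-positive barcodes and 3035 to 5689.9 CPM in free RNA. Those Gm49504-positive barcodes, 77, 337, 397 and 18 in number, were chosen to hold no C1q UMI. That choice itself favours a low macrophage level there. Phase genes stood higher the more UMIs of Mki67 and Top2a a barcode held, and members differed widely among themselves. At exactly 2 UMIs, the 472 members (38.2%) had G2 and M genes at 685, 705, 1064 and 582 CPM, beside 392.2, 339.7, 417 and 452 CPM in the reference, and 1661, 999.6, 1511 and 1160.4 CPM in free RNA (barcodes of up to 100 UMIs). S phase genes in these members were at 1236, 685, 1125 and 1013 CPM, against 613, 528, 615 and 618 CPM in the reference and 1357, 1174, 1466 and 1183 CPM in free RNA. Both programmes thus stood above the reference and below free RNA in every library. At 5 UMIs or more, the 512 members (41.4%) reached 5492, 6176, 6245 and 6077 CPM. There S phase genes reached 3279, 1980, 3195 and 3069 CPM, and macrophage genes went from 23349.9, 16718, 18554 and 20941 CPM in the reference to 18439, 12169, 13297 and 16394 CPM. Members with 5 UMIs or more made up 46.5%, 18.7%, 42.05% and 44.1% of members, fewest in OE-MLKL 1.

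**Figure D1:**
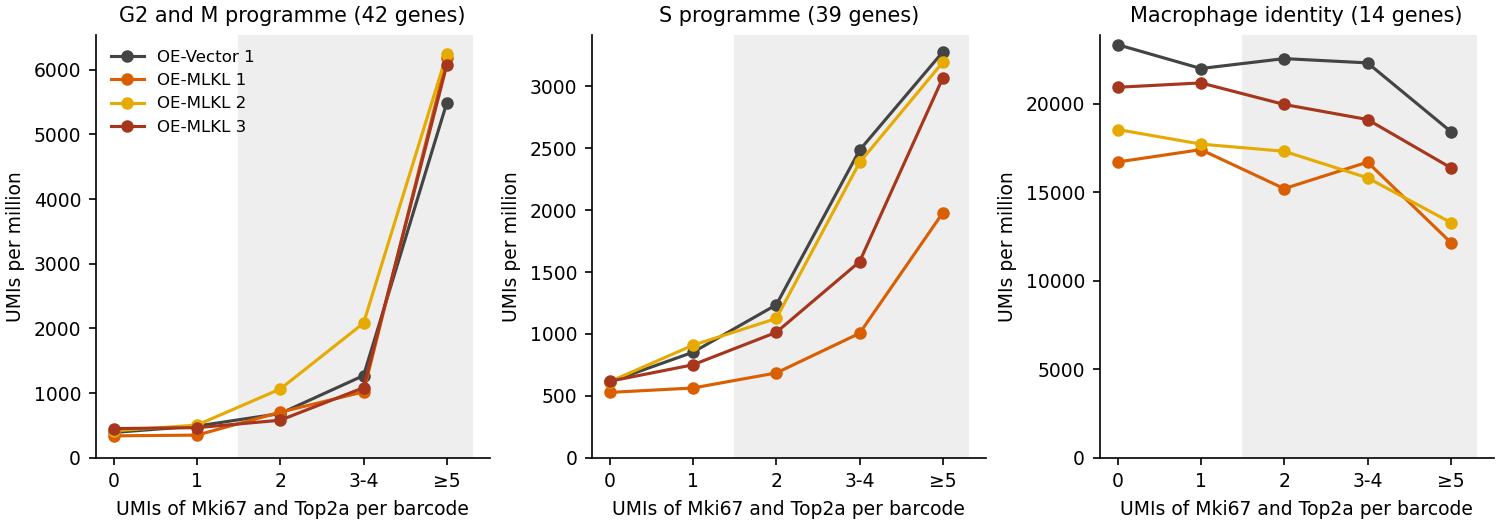
Summed level (CPM, y axis) of G2 and M phase, S phase and macrophage identity genes in C1q macrophages by the number of Mki67 and Top2a UMIs in the barcode (x axis), 1 line per library, with members on grey. Phase genes stay low up to 2 UMIs and reach 5492 to 6245 CPM for G2 and M at 5 or more, where macrophage genes are still at 12169 to 18439 CPM.

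Members made up 14.3% of C1q macrophages in OE-Vector 1 (95% exact binomial interval 12.9 to 15.9), 5.21% in OE-MLKL 1 (4.397 to 6.12), 10.2% in OE-MLKL 2 (9.03 to 11.4) and 16.2% in OE-MLKL 3 (14.97 to 17.5). The OE-MLKL libraries lay on both sides of OE-Vector 1. Their mean was 10.5% ± 5.51 (SD, n = 3), 3.81 points under OE-Vector 1, with an exact two-sided permutation p of 0.75 where 0.25 is the smallest that 1 against 3 libraries allows. The difference rested on single libraries: it was -6.65 points without OE-MLKL 3, with both remaining libraries under OE-Vector 1, and -1.15 points without OE-MLKL 1. It also moved with the barcodes kept. Without those that held a UMI of Krt8, Krt18, Krt19 or Epcam it was -0.51 points, with OE-Vector 1 at 9.69%. Members were deeper than the reference, with medians of 11921, 6332, 6852 and 8927 UMIs against 7486, 3969, 4550.0 and 6288, so the share was also taken after each barcode had been thinned to 2000 UMIs, which left out 972 shallower C1q macrophages. The thinned shares were 5.91%, 1.40%, 4.79% and 7.85%, in the same order. C1q macrophages were still chosen on the whole barcode, so the demand for no UMI of Gm49504 or Cd3e was not thinned. Neutrophil barcodes, of mature cells that have largely left the cycle, were thinned the same way. Only those of at least 2000 UMIs could be used, out of 1827, 2230, 4021 and 1173. Their thinned shares were 3 of 191 (1.57%), 0 of 42, 0 of 59 and 2 of 217 (0.922%). The upper limits of the 95% exact intervals were 4.52%, 8.41%, 6.06% and 3.29%. Before thinning, the medians of these neutrophil barcodes were 2415 to 2448 UMIs, against 4343 to 8718 in the C1q macrophages. In OE-MLKL 1 and OE-MLKL 2, 0 is the lowest count possible, so 42 and 59 barcodes fixed the limits of 8.41% and 6.06%. The 1.40% and 4.79% there could not have exceeded these limits, so the neutrophil barcodes allow no comparison in those 2 libraries. OE-Vector 1 and OE-MLKL 3 stood above their limits. Intervals and limits cover counting error only.

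**Figure D2:**
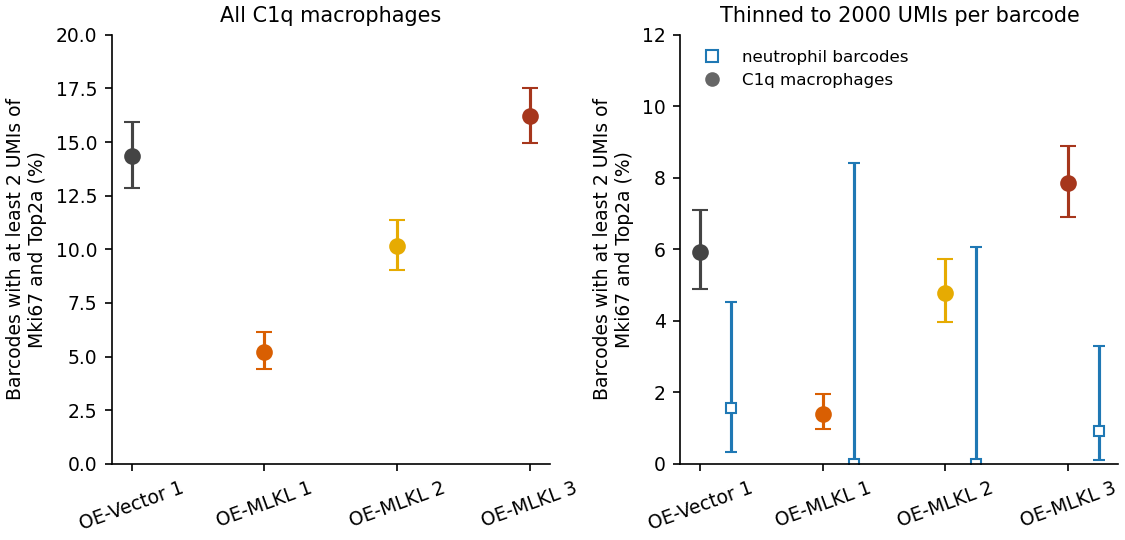
Percent of C1q macrophages with at least 2 UMIs of Mki67 and Top2a (y axis) in each library, for all barcodes (left) and after thinning to 2000 UMIs (right, with neutrophil barcodes as open squares); bars are exact 95% binomial intervals. OE-Vector 1 (14.3%) lies between OE-MLKL 2 (10.2%) and OE-MLKL 3 (16.2%), and OE-MLKL 1 is lowest at 5.21%.

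Each library gave a sum of member counts and a sum of reference counts, and these 8 sums were fitted with the library as a term. The genes of the 6 cell cycle lists are given without a test, since members were chosen on 2 genes of the same programme. Cyclins and mitotic kinases stood higher in members for 18 of 18 genes, with a median log2 fold change of 3.52. Cdk1, the kinase that starts mitosis, was at 119, 60.2, 139.5 and 77.99 CPM in members and 14.5, 9.43, 13.8 and 11.7 CPM in the reference (log2 fold change 2.85 ± 0.11 SE). Its partner cyclin genes Ccna2 and Ccnb1 stood higher by 4.70 and 4.18, the mitotic kinase genes Nek2, Plk1 and Aurkb by 5.11, 4.17 and 3.47, and Ccne2, a cyclin of S phase entry, by 3.89, all on the log2 scale. Cdk2, the kinase of S phase, differed least in the list, at 1.06.

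All 36 DNA replication genes stood higher, with a median of 1.89. Pclaf, a partner of the sliding clamp, led the list at 431, 101, 286 and 244 CPM against 9.36, 3.0005, 10.6 and 7.70 CPM in the reference (4.98 ± 0.11 on the log2 scale). Mcm5 and Mcm2, subunits of the replicative helicase, were higher by 2.61 and 1.86, the nucleotide synthesis genes Rrm2 and Tk1 by 3.98 and 3.72, and Pcna, the clamp itself, by 1.28. Levels of the whole list were 3002, 1106, 2744 and 2355 CPM, lowest in OE-MLKL 1, where reference cells were also lowest at 464 CPM.

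All 35 genes of spindle, kinetochore and cytokinesis were higher, with a median of 3.52, among them the microtubule-bundling genes Nusap1 (5.16) and Prc1 (4.73), the spindle motor Kif11 (4.61), the kinetochore gene Cenpf (4.66) and Birc5, survivin of the chromosomal passenger complex (4.09). In mitotic chromatin all 15 genes were higher, from Esco2, which acetylates cohesin (5.29), to the chromatin protein gene Hmgb2 (1.85) and the histone variant gene H2afz (1.21). Of 13 genes of the anaphase promoting complex and its regulators 12 were higher, but the median was 0.74. Its mitotic activator Cdc20 (3.38), its ubiquitin-conjugating enzyme Ube2c (3.87) and its inhibitor Fbxo5 (4.23) were far above the constant subunit Cdc16 (0.11). Pttg1, securin, was the only gene in these lists with a negative value, at 27.2, 24.7, 27.4 and 17.1 CPM against 32.3, 28.8, 26.7 and 19.5 CPM (-0.28 ± 0.11). Among 10 transcription factor genes, E2f7, a repressor of late S phase, Foxm1 and Mybl2 (B-Myb) stood higher by 4.50, 4.09 and 3.55, against 1.13 for the activator E2f1 and 0.25 for E2f3.

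In this fit 3159 of 12002 genes tested (26.3%) differed between members and the reference at a Benjamini-Hochberg adjusted p under 0.05 in edgeR's quasi-likelihood test, 1351 higher (11.3%) and 1808 lower (15.1%), and these counts include the cycle genes. The split depended on the scaling. With library size alone in place of TMM factors 2791 were called (23.3%), 2009 higher (16.7%) and 782 lower (6.52%). The median of all genes moved from -0.06 to 0.06, and lists with small falls fell less. Macrophage identity genes then had a median of -0.20 (11 of 14 called lower) and growth factor receptors and regulators -0.22 (9 of 15). Inflammatory genes had -0.16 (4 of 13) and lysosomal genes -0.17 (9 of 14). The same contrast in which members and reference were chosen on one random part of each barcode's UMIs and counted on the other called 2813.

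Of 14 brakes of the cycle 4 were called higher and 3 lower. Cdkn2c (p18), an inhibitor of the kinases CDK4 and CDK6, stood at 64.3, 66.1, 76.9 and 64.7 CPM in members and 11.1, 25.4, 17.7 and 12.7 CPM in the reference, with no overlap between arms (2.02 ± 0.14 on the log2 scale). Its relative Cdkn2d (p19) was higher by 1.41 ± 0.13 and Rbl1, the pocket protein p107, by 1.79 ± 0.12. These 3 are themselves read in step with the cycle, so their values are a description like those of the cycle lists. In the other direction Cdkn1a (p21), the inhibitor induced by p53, fell in every library, from 346, 332, 209 and 219 CPM to 226, 267, 177 and 209 CPM (-0.43 ± 0.08, adjusted p = 0.00105), with the antiproliferative genes Btg1 (-0.47) and Btg2 (-0.50). Of 6 D cyclins, their kinases and Myc, Cdk4 alone passed with TMM scaling, and 3 were higher with library size scaling. Cdk4 stood at 131, 62.2, 131 and 100.1 CPM in members and 85.6, 56.3, 71.8 and 68.1 CPM in the reference (0.47 ± 0.09, adjusted p = 0.00117). Ccnd1, Ccnd2 and Ccnd3, cyclins that pass growth signals to CDK4, had log2 fold changes of 0.15, 0.16 and 0.00 and did not pass.

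Of 14 macrophage identity genes, 12 fell and none rose, with a median of -0.32. Csf1r stood at 739.5, 656, 699 and 841 CPM in members and 788, 815, 959 and 1032 CPM in the reference, lower in 4 of 4 libraries (-0.41 ± 0.05, adjusted p = 6.92e-05). Cd14, the lipopolysaccharide coreceptor, fell by 0.53 and Tyrobp, the adaptor of Trem2 and other receptors, by 0.47, while Cd68 and Adgre1 changed by -0.32 and -0.33. The list fell less, with 5 genes called and a median of -0.16, where all barcodes with a UMI of a keratin, Epcam or collagen gene had been left out (a fit that called 5.33% of 10427 genes higher and 2.92% lower, 8.25% in all), and 10 fell against a reference matched on depth, a fit that called 7.79% of 10634 genes higher and 8.50% lower. Growth factor receptors and regulators gave 12 lower genes of 15, median -0.34, and 6 of 15 without barcodes with keratin, Epcam or collagen UMIs. Maf, a macrophage transcription factor, went from 705, 548, 845 and 762 to 652, 538, 599 and 665 CPM (-0.33 ± 0.07, adjusted p = 0.00171), and Klf2 and Klf4, factors of quiescence, fell by 0.71 and 0.50. Il4ra, the receptor chain for interleukin 4, which drives macrophage division in tissue, fell by 0.42.

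**Figure D3:**
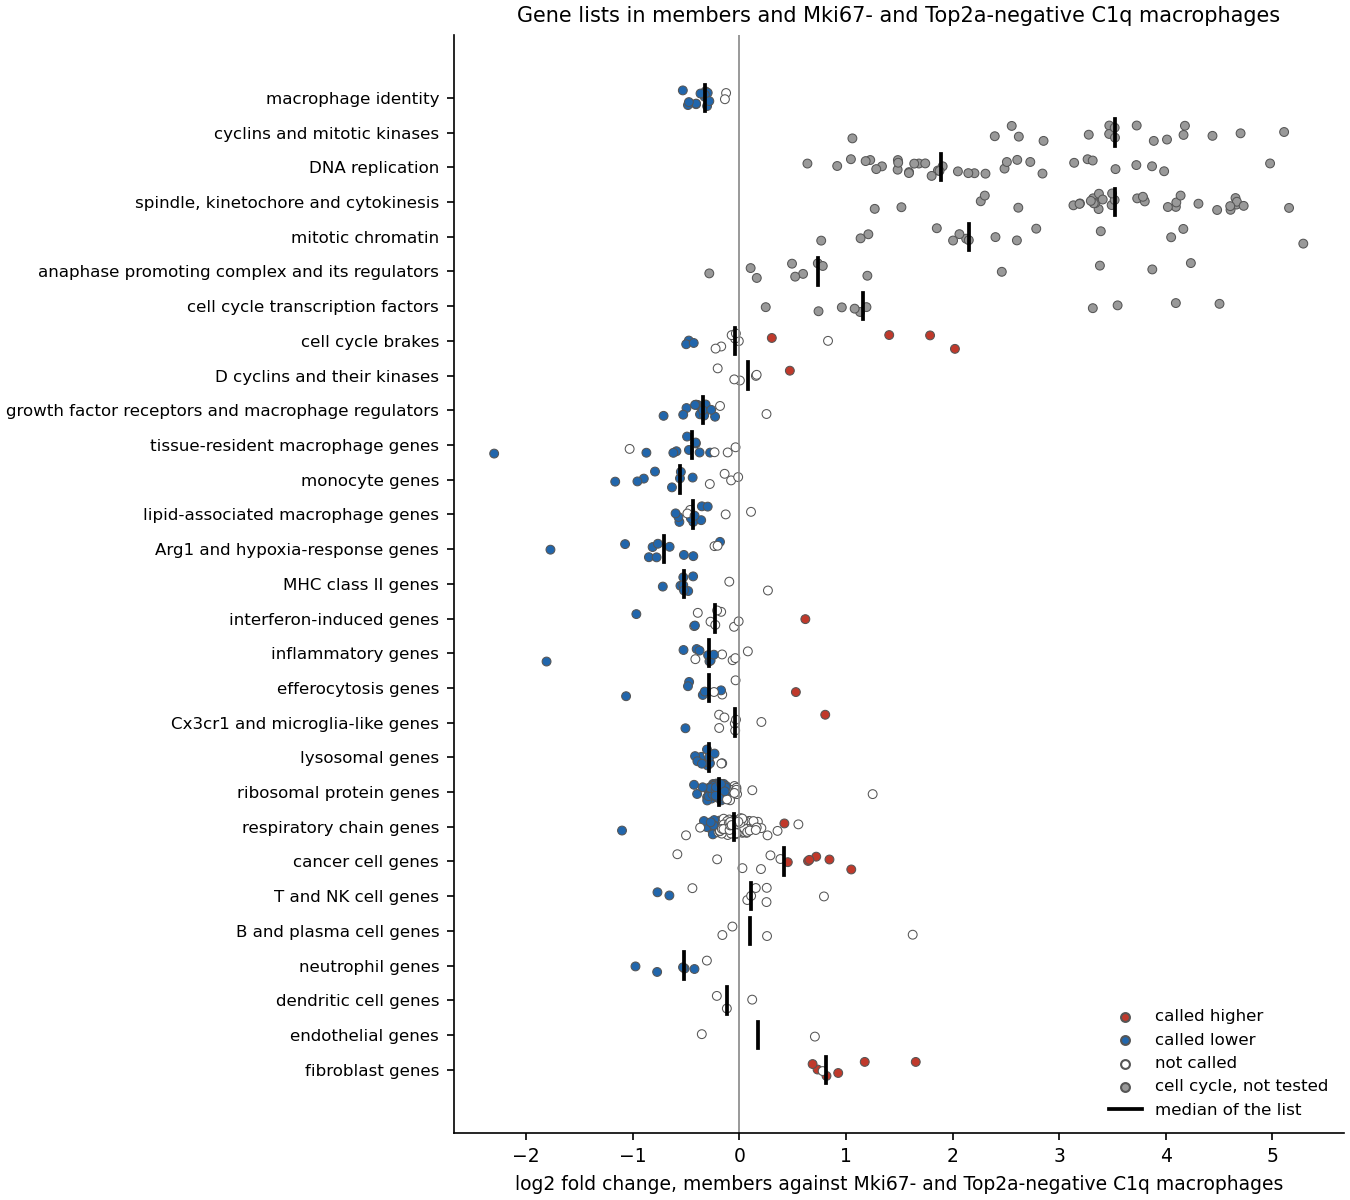
Log2 fold change of members against Mki67- and Top2a-negative C1q macrophages (x axis) for the genes of each list (y axis), each point 1 gene and each bar the median of its list; red and blue points passed the test at an adjusted p under 0.05, and grey points are cell cycle genes given with no test. Cell cycle lists lie to the right, with medians of 0.74 to 3.52, and most macrophage lists lie left of 0, lowest for Arg1 and hypoxia-response genes at -0.71.

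Arg1 and hypoxia-response genes fell furthest of the lists, with 10 of 12 lower, none higher and a median of -0.71. Arg1, arginase 1, stood at 937, 602, 817 and 612 CPM in members and 1712, 667, 1073 and 974 CPM in the reference (-0.65 ± 0.09, adjusted p = 5.21e-05). The gap was wide in OE-Vector 1 and narrow in OE-MLKL 1. Hilpda, a lipid droplet gene switched on by hypoxia, went from 240.0, 108, 40.0 and 72.3 CPM to 95.6, 59.2, 29.4 and 42.1 CPM (-1.07 ± 0.11, adjusted p = 6.23e-06). Bnip3, which marks mitochondria for removal, fell by 0.81, the oxygen-sensing hydroxylase gene Egln3 by 0.85, the growth factor gene Vegfa by 0.78 and the vasodilator gene Adm by 1.77. Against a reference matched on depth the count was 11 of 12 with a median of -0.89, and without barcodes with keratin, Epcam or collagen UMIs 6 of 11 with a median of -0.43.

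Genes that mark macrophage origins and states also fell. Among tissue-resident macrophage genes 10 of 14 were lower and none higher, median -0.44. That count was 6 of 13 against the depth-matched reference and 4 of 13, median -0.26, without barcodes with keratin, Epcam or collagen UMIs. Selenop, which carries selenium, was at 965, 1371, 946 and 872 CPM against 1112, 1757, 1724 and 1298 CPM (-0.62 ± 0.08, adjusted p = 3.04e-05), and the folate receptor gene Folr2 fell by 0.59, Gas6, a ligand of Mertk, by 0.49 and Mrc1, the mannose receptor, by 0.27. Lyve1 and Cd163, hyaluronan and scavenger receptors of resident cells, fell by 2.30 and 0.87 but were not called against the depth-matched reference, where they stood at -1.14 and -0.19. Monocyte genes gave 8 of 12 lower, median -0.55 (4 of 12 after that removal), with the chemokine receptor gene Ccr2 at -0.56, Chil3 at -0.79 and Ifitm6 at -1.16. Ly6c2, the defining surface gene of classical monocytes, went from 14.99, 44.5, 34.6 and 6.96 CPM to 1.87, 53.3, 15.7 and 4.99 CPM, higher in members of OE-MLKL 1 and lower in the other libraries (adjusted p = 0.0323, not called in 9 of 21 alternatives).

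Lipid-associated macrophage genes fell in 9 of 13 cases, median -0.43, and in 6 of 13 after the same removal. Apoe, the lipid carrier, stood at 12969, 19759, 16774 and 15689.6 CPM in members and 17443, 26961, 23950.5 and 20482 CPM in the reference, apart within every library (-0.56 ± 0.03, adjusted p = 9.95e-10). Trem2, a lipid receptor, fell by 0.42, the cathepsin gene Ctsl by 0.57 and the lipid droplet coat gene Plin2 by 0.60, whereas Spp1, osteopontin, was at 379.9, 329.6, 481 and 313 against 513, 311, 381 and 311 CPM and did not pass (adjusted p = 0.337). Antigen presentation genes of MHC class II fell in 7 of 9 cases, median -0.52, and in 6 of 8 after it. Cd74, the invariant chain, was at 5006, 2334, 3060.4 and 7553 CPM against 7250.3, 3412, 3973 and 9172 CPM (-0.55 ± 0.04, adjusted p = 2.73e-07). H2-Ab1 and H2-Eb1, chains of the class II molecule, and their master regulator Ciita fell by 0.53, 0.52 and 0.72. Lysosomal genes fell in 12 of 14 cases, median -0.29, among them Npc2 (-0.39) and Psap (-0.35), and in 3 of 14 without barcodes with keratin, Epcam or collagen UMIs.

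**Figure D4:**
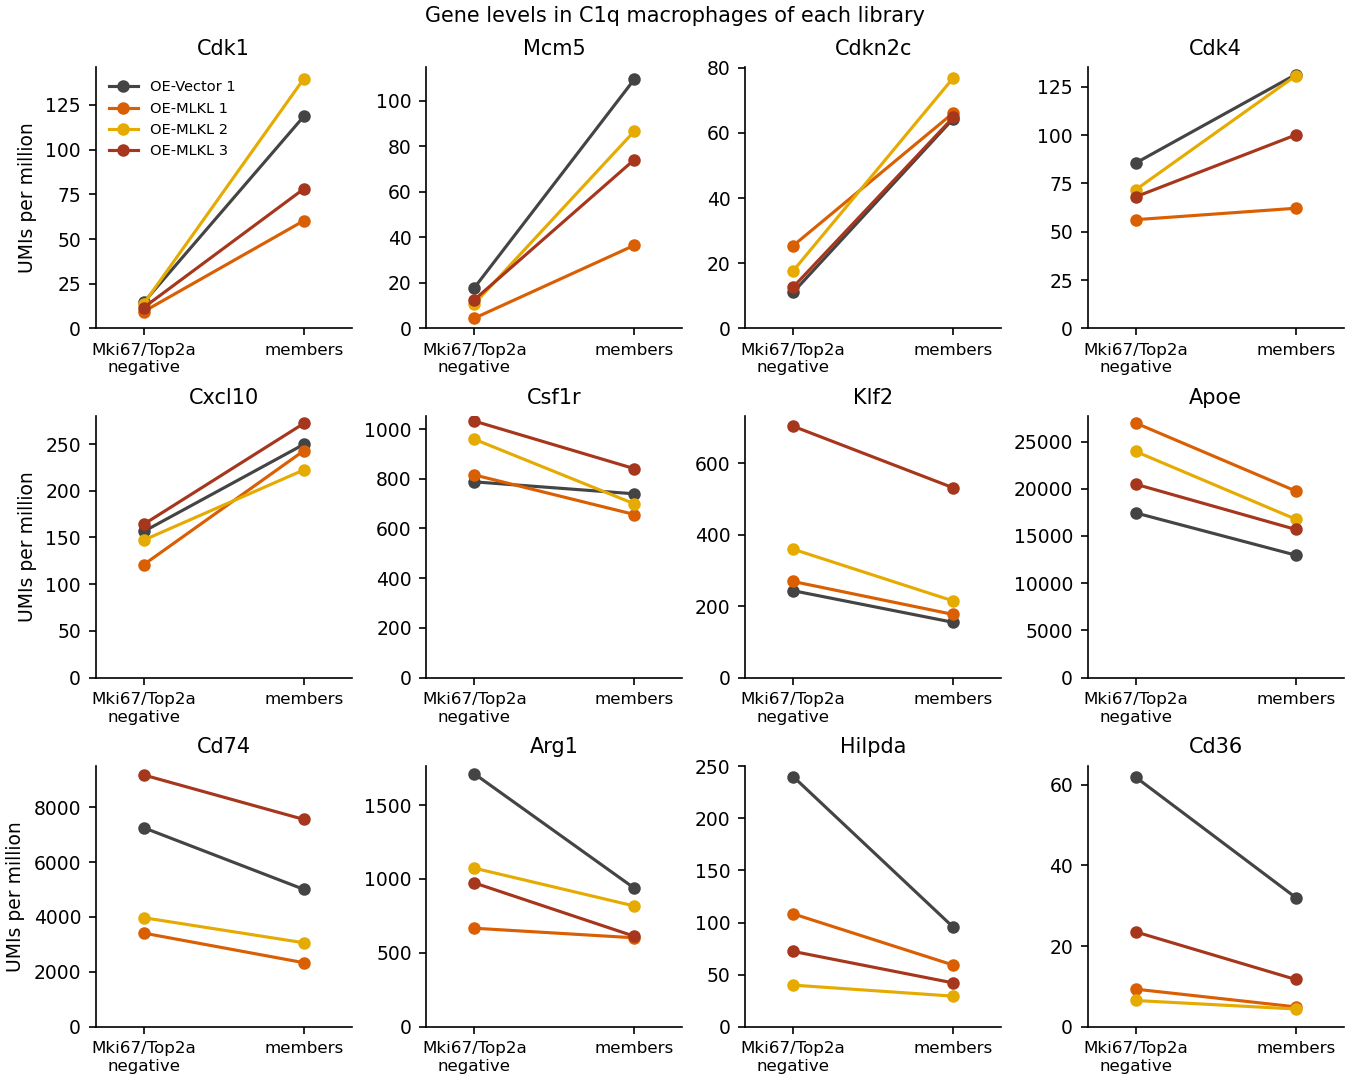
Level (CPM, y axis) of 12 genes in Mki67- and Top2a-negative C1q macrophages and in members, 1 line per library. Cdk1, Mcm5, Cdkn2c, Cdk4 and Cxcl10 stood higher in members of all 4 libraries, and Csf1r, Klf2, Apoe, Cd74, Arg1, Hilpda and Cd36 lower.

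Some genes went against the general fall. Cxcl10, a chemokine that draws T cells and is induced by interferon, rose from 156, 121, 147 and 164 CPM to 249.6, 243, 222 and 272 CPM (0.62 ± 0.07, adjusted p = 1.05e-05), while Rsad2 (viperin, -0.97) fell, Isg15 (-0.42) was called here but not in 9 of 21 alternatives, and the other 8 interferon-induced genes were not called. Of 13 inflammatory genes 8 fell, median -0.28, and 3 against the depth-matched reference. Il1b changed by -0.52 ± 0.09 (adjusted p = 3.78e-04), and Nos2, the inducible nitric oxide synthase, went from 85.8, 8.79, 6.18 and 10.2 to 14.7, 7.90, 1.47 and 7.68 CPM, or -2.55, -0.15, -2.07 and -0.41 as log2 ratios. Efferocytosis genes, which serve the uptake of dead cells, gave 6 lower and 1 higher of 10, and 3 lower and none higher without barcodes with keratin, Epcam or collagen UMIs. The scavenger receptor gene Cd36 fell from 61.9, 9.32, 6.51 and 23.5 CPM to 32.0, 4.93, 4.41 and 11.7 CPM (-1.06 ± 0.12, adjusted p = 1.44e-05), with Mertk at -0.48 and the cholesterol exporter Abca1 at -0.47. The bridging protein gene Mfge8 rose by 0.53 ± 0.12 (adjusted p = 0.00520) but stood at -0.01 without barcodes with keratin, Epcam or collagen UMIs. Cx3cr1, the fractalkine receptor, did not pass, at 687, 59.2, 454 and 967 against 535, 73.4, 459 and 942 CPM (-0.04 ± 0.07), and its list gave 1 gene higher (Sparc, an extracellular matrix protein) and 1 lower (Gpr34, -0.51) of 9. Sparc rose by 0.81 but stood at 0.01 against the depth-matched reference. Ribosomal protein genes fell in 61 of 77 cases, by a median of only -0.19, and in 22 with 2 higher under library size scaling. Respiratory chain genes gave 1 higher and 10 lower of 94, and 11 higher and 4 lower under library size scaling, so their direction depended on it.

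RNA of other cell types moved with these differences. Cancer cell genes, among them Krt8, Krt18 and Epcam, summed to 418, 378, 562 and 474 CPM in members and 291, 196, 272 and 397 CPM in the reference, against 2205 to 4292 CPM in dividing Gm49504-positive barcodes and 1842 to 2535 CPM in free RNA. Of 12 tested, 6 were higher in members (median 0.42). Against the depth-matched reference 4 of 11 were (median 0.10), and none of 12 with barcodes of high doublet score removed, a fit that called 9.75% of 11464 genes higher and 10.6% lower, 20.4% in all. A UMI of Krt8, Krt18, Krt19 or Epcam was present in 63.6%, 40.3%, 48.5% and 52.9% of members and 41.8%, 27.6%, 38.8% and 44.4% of the reference, shares that rise with depth, in which members exceeded the reference, and 15.5% to 26.5% of members had a high doublet score against 7.502% to 11.7% of the reference. Fibroblast genes summed to 238, 387, 156 and 277 CPM against 84.9, 258, 42.9 and 149.5 CPM, with 6 of 7 higher, none against the depth-matched reference, where their median was 0.01. Neutrophil genes were lower in 5 of 6 cases, T and NK cell genes in 2 of 9, and none of 4 B and plasma cell, 3 dendritic cell or 2 endothelial genes passed; red cell genes summed to 0 CPM in members of every OE-MLKL library and 1.60 CPM in OE-Vector 1. The part of cancer and fibroblast RNA in the differences above was not tested beyond these removals. Free RNA, read in barcodes of up to 100 UMIs, held Mki67 and Top2a at 334, 139.6, 274 and 227 CPM. A barcode of free RNA alone, at the median depth of the reference, would be expected to hold 2.50, 0.55, 1.25 and 1.43 UMIs of both genes together. These values are for free RNA only, and its share in a C1q macrophage barcode was not measured. In OE-Vector 1, 1408 of 2072 C1q macrophages held no UMI of either gene.

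Several of the 10 genes outside the lists that rose most, among those with a mean of at least 20 CPM in members, serve mitosis. The 10 are given without a test like the cycle lists. Neil3, a DNA glycosylase, was at 32.0, 17.8, 29.4 and 26.5 CPM in members and 0.859, 0.643, 0.331 and 0.828 CPM in the reference (5.13 ± 0.23). The mitotic kinase genes Pbk and Cit, the spindle genes Aspm, Kif15 and Spag5, the centriole gene Stil, the histone gene Hist1h1b, Prr11 and Mxd3 were higher by 4.96, 4.06, 4.80, 4.40, 4.25, 4.52, 4.25, 4.52 and 4.16 in that order. Hist1h1b, linker histone H1.5, lay at 229, 53.3, 245 and 392.3 CPM in members and was lowest in OE-MLKL 1.

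The 10 that fell furthest were taken from called genes outside the lists with a mean of at least 20 CPM in the reference. Among them Retnla, made by macrophages under interleukin 4, fell from 105, 0.750, 13.8 and 24.6 CPM to 10.7, 0, 0 and 1.54 CPM (-3.68 ± 0.20, adjusted p = 2.93e-09). Its UMIs sat in few cells, in OE-Vector 1 1099 UMIs in 78 of 1408 reference barcodes, 238 of them in 1, and 40 UMIs in 18 of 297 members, and members of OE-MLKL 1 and OE-MLKL 2 held none. Prtn3, a granule protease of early myeloid cells, fell by 1.57, Ms4a8a by 1.28, Tcp11l2 by 1.18 and the lectin gene Fcna by 1.16. The matrix protease genes Mmp13 and Mmp12 fell by 1.53 and 1.42 and the eotaxin gene Ccl24 by 1.15. Tff3 and Fcgbp, products of goblet cells, fell by 1.86 and 1.68, but in the reference of OE-MLKL 3 743 of 1494 Tff3 UMIs and 814 of 1696 Fcgbp UMIs came from 1 barcode each, and without barcodes with RNA of another cell type, a removal that both genes helped to set, they stood at -0.57 and -0.11.

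The question put to the groups was whether members differed between OE-MLKL and OE-Vector tumours. Within members, 16 of 11617 genes tested (0.138%) differed, and every one stood lower under the OE-MLKL label. The DESeq2 test called 15, 4 of them higher. Of the 16, 12 were genes of digestive enzymes and other acinar products, such as the lipase gene Pnlip and the trypsinogen gene Prss2. The other 4 were the elastase gene Cela1, Mmp13 (collagenase 3; -4.28 on the log2 scale, adjusted p = 0.0328), Atp6v0d2 (a proton pump subunit of macrophages and osteoclasts; -2.75, adjusted p = 0.0392) and Ccl24 (eotaxin 2; -3.11, adjusted p = 0.0407), from edgeR. In OE-Vector 1, a set of 13 enzyme genes (these 12 and Try5) had 2562 UMIs in members, and 2455 of them (95.8%) came from 1 barcode of 11884 UMIs. The set summed to 684 CPM in its members with that barcode and 28.7 CPM without it, against 42.4, 34.3 and 9.80 CPM in the OE-MLKL libraries. Cela1 was spread more widely. It was at 124, 17.8, 20.6 and 31.1 CPM in members and 81.6, 18.2, 20.1 and 31.5 CPM in the reference, and in OE-Vector 1 139 of 297 members and 451 of 1408 reference barcodes held a UMI of it, with 183 of 466 member UMIs in 1 barcode. Members of the OE-MLKL libraries with a Cela1 UMI numbered 14 of 139, 36 of 264 and 107 of 537. After removal of barcodes with RNA of another cell type (17 members and 27 reference barcodes that held enzyme genes at 1% of UMIs or more, at least 10 UMIs of Dcn, or at least 10 of Zg16, Fcgbp and Tff3), 0 of 11432 genes (0%) were called by edgeR, with 615 at an unadjusted p under 0.05. With no difference anywhere, a share of about 0.05 of the genes would reach that unadjusted p. The removal was set on enzyme genes and so fixes the loss of their calls. Mmp13, Atp6v0d2 and Ccl24 lost theirs at nearly the same size. The Benjamini-Hochberg adjustment is easier to pass where other genes have small p, as the enzyme genes did in the fit with all members. In the fit with all members limma-voom called 3.

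After that removal Mmp13, Atp6v0d2 and Ccl24 had the smallest p with Mmp12 and Ifi27l2a, and the first 3 kept their size, at -4.30, -2.77 and -3.14 (adjusted p = 0.237 each, by edgeR). Mmp13 stood at 63.0, 0, 0.490 and 6.53 CPM in members. Atp6v0d2 was at 23.0, 3.95, 3.92 and 3.46 CPM and Ccl24 at 83.8, 10.9, 18.1 and 4.80 CPM. Mmp12, macrophage elastase, was at 152, 0.987, 17.1 and 25.7 CPM (-3.33) and Ifi27l2a, an interferon-induced gene, at 268, 91.8, 83.7 and 80.5 CPM (-1.71), and neither was called in either fit (adjusted p = 0.334 for both after the removal). For these 5 genes OE-Vector 1 lay above every OE-MLKL library, in members and in the reference.

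In the fit with all members, edgeR called no gene of the lists. The DESeq2 test called 1 growth factor receptor or regulator gene higher and 1 tissue-resident gene lower, and edgeR 1 inflammatory gene lower without barcodes with a UMI of Krt8, Krt18, Krt19 or Epcam. Beside a median of 0.03 for all genes, DNA replication genes had a median of -0.55 with 34 of 36 negative, Arg1 and hypoxia-response genes -0.73, interferon-induced genes -0.66 and G2 and M phase genes -0.14. OE-MLKL 1, with the fewest members of 5 UMIs or more (18.7%), also had the lowest replication level, 1106 CPM against 2355 to 3002 CPM in the others. Among members with 5 UMIs or more the medians were -0.33 for replication, -0.63 for Arg1 and hypoxia-response, -0.34 for interferon-induced and 0.09 for G2 and M phase genes, the last with the other sign.

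Whether the difference between members and the reference itself depended on the group was tested as an interaction. Of 12002 genes, 30 passed (0.25%), 15 in each direction (31, or 0.258%, with library size scaling, and 39 of 11660, of which 24 or 0.206% were higher, in members with 5 UMIs or more), and 12 of 11927 (0.101%), all with a higher value in OE-MLKL, after removal of barcodes with RNA of another cell type. Hmox1, heme oxygenase 1, stood at 225, 459.9, 213 and 309 CPM in members and 605, 585, 256 and 431 CPM in the reference. It was lower in members everywhere, by -1.43 on the log2 scale in OE-Vector 1 and by -0.35, -0.27 and -0.48 in the OE-MLKL libraries, a difference of 1.08 ± 0.13 (adjusted p = 2.98e-05). S100a4, a calcium-binding protein, was lower in members in OE-Vector 1 (-0.78) and higher in the OE-MLKL libraries (0.11, 0.43 and 0.14), a difference of 1.03 ± 0.14 (adjusted p = 2.55e-04). The interferon-induced genes Ifi27l2a, Ifitm3 and Irf7, the lectin gene Lgals3 and the chemokine gene Pf4 differed in the same direction, by 0.89, 0.67, 1.17, 0.63 and 0.70. With a single OE-Vector library these values describe that tumour. For Hmox1, 194 of 842, 96 of 466, 65 of 435 and 274 of 1609 member UMIs came from 1 barcode each. A UMI of Hmox1 was present in 69.7%, 64.0%, 54.5% and 57.2% of members. In the reference it was present in 58.9%, 49.7%, 53.0% and 46.5%, below members in each library, and such shares rise with depth.

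**Figure D5:**
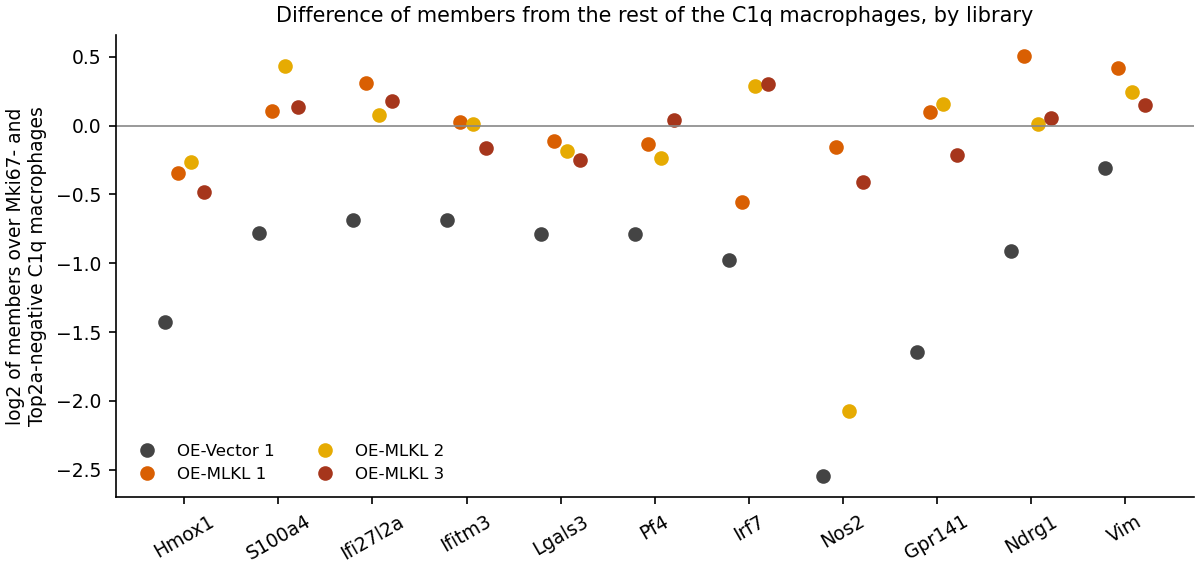
Log2 ratio of members over Mki67- and Top2a-negative C1q macrophages (y axis) in each library for 11 genes, chosen for a relatively higher ratio in OE-MLKL by the interaction test. That choice itself favours a low OE-Vector 1, and genes that went the other way are not shown. OE-Vector 1 lies lowest for each of the 11 genes, for example at -1.43 for Hmox1 against -0.48 to -0.27 in the 3 OE-MLKL libraries.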

How the data were processed

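The libraries were 10x Genomics 3' single-cell RNA libraries of primary tumours, 1 per mouse. As deposited, the values are whole UMI counts without normalization, from reads the authors aligned to mm10. Per the labels' processing notes Cell Ranger 2.1.1 was used, while the headers of the deposited matrices name version 7.1.0 and the study's methods name another, and whether intronic reads were counted is not given in the sources used here. Of 6 samples, 4 had a count matrix, and OE-Vector 2 and 3 were not analysed here.

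The members, gene lists and tests were chosen with earlier results of these data known. Counts were summed per library and arm. Members and reference were compared with edgeR 4.0.16 (R 4.3.3; TMM scaling, filterByExpr, quasi-likelihood test with the library as a term, Benjamini-Hochberg adjustment at 0.05 over all genes tested, the 9 genes of the rule left out). The groups were compared within members, with 2 residual degrees of freedom, and by an interaction term; the lone OE-Vector library was assumed to vary like the others. Per the study's methods the mice were littermates of matched age. Shares were compared by an exact permutation test over libraries (SciPy 1.17.1). The edgeR fits were also run on simulated sums of counts. The gate, thinning, doublet score, share test and promoter search were not simulated. Doublets stayed in, since the source names no removal; an alternative removed the highest simulated-doublet scores, 0.8% per 1000 barcodes. Alternatives changed scaling, filter, tool (DESeq2 1.42.0, limma 3.58.1), gate, depth and libraries. The depth-matched reference, the threshold of 5 UMIs, and the removal of barcodes with keratin, Epcam and collagen UMIs or with RNA of another cell type were chosen after the data were seen.

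Named genes were the genes of the rule, up to 6 per list with the largest changes or on which background turned, and outside the lists the 10 called genes with the largest change in each direction at 20 CPM or more. Where none was called, the 5 with the smallest p were named. Pnlip, Prss2 and Cela1, and genes of the interaction shown beyond that rule, were chosen after their values were seen. Some genes of the lists are not reported here. Promoters came from RefSeq tables of GRCm38.p6.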

Additional observations from a re-analysis of the deposited data

Results flagged for a closer look

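For 30 genes, 15 in each direction, the difference between members and Mki67- and Top2a-negative C1q macrophages depended on the group by the interaction test, which sets 3 OE-MLKL libraries against 1 OE-Vector library. Values are log2 differences, positive where members stood relatively higher in OE-MLKL. Positive values were 1.08 for Hmox1, 1.03 for S100a4, 0.89 for Ifi27l2a, 0.67 for Ifitm3, 1.17 for Irf7, 0.63 for Lgals3, 0.70 for Pf4, 2.00 for Nos2, 1.66 for Gpr141, 1.10 for Ndrg1, 0.60 for Vim, 0.62 for Ctsl, 0.75 for Ccl5, 0.70 for Tmsb10 and 1.41 for Il7r. All 15 positive genes are listed here, and 7 of the 15 negative ones. Of the other 8, Reg1, Clps, Prss2, Cela3b, Try5, Sycn and 2210010C04Rik are acinar genes and Cxcl13 (-3.96) is a chemokine gene, named after their values were seen. The negative values were -1.95 for the scavenger receptor gene Marco and -1.03 for Lcn2. For Nos2, 6 of 8 UMIs of members in OE-MLKL 1 and 21 of 40 in OE-MLKL 3 came from 1 barcode each. For Hmox1, 1 barcode held 23.0%, 20.6%, 14.9% and 17.0% of the UMIs of members.

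Genes of other cell types also passed, at -5.71 for Ctrb1 and -5.30 for Try4 (acinar enzymes), -3.13 for Zg16 (goblet cells), and -1.90 for Dcn and -2.61 for Timp3 (stroma). After removal of barcodes with RNA of another cell type Ctrb1 stood at -1.01, Try4 at -0.02, Zg16 at 0.08, Dcn at -0.19 and Timp3 at -1.71, and none of these 5 passed. The removal was set on enzyme genes, Dcn and Zg16, so it fixes the loss for Ctrb1, Try4, Dcn and Zg16. Marco (-1.25), Lcn2 (-1.05), Ctsl, Ccl5, Tmsb10 and Il7r did not pass there either. Hmox1, S100a4, Ifi27l2a, Ifitm3, Lgals3, Pf4, Irf7, Nos2, Gpr141, Ndrg1 and Vim still passed there. Since 1 tumour stands for the vector group, the group and that tumour cannot be told apart.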

How the results depend on the processing

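No paired analysis was possible because the groups with a matrix share a single replicate number, and the labels do not say that it marks a shared batch. The share of members kept its order over libraries in every alternative run, with differences of -6.65 (without OE-MLKL 3) to -0.51 points and p of 0.667 to 1. The 3159 genes that differed between members and reference became 1952 with the DESeq2 test, 1155 without barcodes with a UMI of Krt8, Krt18, Krt19 or Epcam, 860 without collagen UMIs as well, 1732 with the reference matched on depth, 377 without the library term, and 1887 to 3143 with a library left out (1887 with OE-MLKL 3 left out, 2029 with OE-MLKL 2 left out). The 16 genes of the group comparison became 9 with library size scaling, 116 with no filter (39 higher), 3 with limma-voom, 2 without keratin or Epcam UMIs, 0 without barcodes with RNA of another cell type, and 22 to 94 with a library left out (43 without OE-MLKL 1, 94, of them 30 higher, without OE-MLKL 3). The 30 of the interaction became 96 with no filter, 12 with the DESeq2 test, 4 without keratin or Epcam UMIs, 12 without barcodes with RNA of another cell type, and 56 to 85 with a library left out (85, 65 and 56 without OE-MLKL 1, 2 and 3). The cause was not tested. Fewer barcodes remained in the removals. Over 1573 values of the 75 named genes called against the reference, 126 lost the call and 5 changed sign: Mfge8 to -0.011 without keratin, Epcam and collagen UMIs, Sparc to -0.10 with C1q genes at 0.5% or more, -0.22 with high doublet scores removed and -0.11 without keratin, Epcam and collagen UMIs, and Fcgbp to 0.038 without OE-MLKL 3 (range -2.41 to 0.038 with a library left out). Between groups Ctrb1 changed sign to 0.22 without keratin or Epcam UMIs and Try4 to 0.20 without RNA of another cell type. In the interaction Dcn went to 0.64 with C1q genes at 0.5% or more and 2.15 without keratin or Epcam UMIs, Try4 to 1.33 and Zg16 to 0.74 under the latter, Zg16 to 0.085 without RNA of another cell type, and Lcn2 to 0.46 with high doublet scores removed. The 32 named cell cycle genes kept their sign in all 671 values. OE-MLKL 1 had the fewest members (139) and the smallest sum of member UMIs (1013292).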

Other observations

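Members were also counted by state among C1q macrophages with at least 2000 UMIs. Arg1-positive cells were members in 13.2% (95% exact binomial interval 11.2 to 15.4), 6.69% (5.19 to 8.47), 10.4% (8.85 to 12.2) and 17.0% (14.9 to 19.3) of cases, and Arg1-negative cells in 19.2% (16.6 to 22.1), 4.79% (3.78 to 5.98), 10.8% (8.97 to 12.8) and 19.3% (17.4 to 21.2). The intervals were apart in OE-Vector 1 only. Cells with Cx3cr1 and without Mrc1 were members in 19.0%, 7.92%, 17.0% and 20.2% of cases. Their intervals were 15.2 to 23.1, 3.48 to 15.01, 12.4 to 22.5 and 17.5 to 22.99. Cells with Cd163 or Lyve1, genes of resident macrophages, were members in 13.8%, 4.93%, 7.71% and 8.05%, the last from 7 members of 87 cells. There the intervals were 6.15 to 25.4, 2.79 to 8.01, 5.15 to 11.03 and 3.296 to 15.9. The intervals of these states overlapped in OE-Vector 1 and OE-MLKL 1 and were apart in OE-MLKL 2 and OE-MLKL 3. All C1q macrophages of that depth were members in 15.8%, 5.52%, 10.6% and 18.4%. That share lay outside the Cx3cr1 interval in OE-MLKL 2 only, and outside the Cd163 or Lyve1 interval in OE-MLKL 3 only. A state was called by a UMI of the gene in the barcode thinned to 2000 UMIs, and membership in the whole barcode.

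With each barcode thinned to 2000 UMIs, G2 and M phase genes outweighed S phase genes in 43.2%, 42.8%, 50% and 43.3% of members, and S phase genes outweighed them in 44.9%, 30.4%, 38.4% and 40.9%. Among members with 5 or more UMIs of Mki67 and Top2a, G2 and M phase genes outweighed S phase genes in 62.3%, 76.9%, 73.0% and 65.4%, the second of these from 26 barcodes. That choice itself favours G2 and M phase, when both genes are read most.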
